A study of Mus musculus with 12 samples.

Results

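Lysosomal enzymes, membrane proteins and the proton pump that acidifies lysosomes were followed as 49 named genes, all found once in the count table of 54532 genes. The genes were chosen by symbol from a list and not by a cutoff on a measured value, but with earlier results of these data known. They comprised 23 hydrolases, 3 luminal cofactors, 8 lysosomal membrane proteins, the 2 transcription factors Tfeb and Tfe3, and 13 genes of the vacuolar ATPase (V-ATPase). RNA sequencing was done on N9, an established mouse cell line of microglia, the macrophages that live in brain tissue, in 4 groups of 3 libraries. The high-fructose medium was the control medium at 15 mM fructose and the high-glucose medium the same at 15 mM glucose, and the labels do not say whether this is the total or the addition. The control medium was a glucose-free base with dialysed serum, 3 mM glucose and 5 mM fructose. Both raised-sugar groups and the control-medium LPS group were kept in their medium for 18 h and then given lipopolysaccharide (LPS), a bacterial cell wall component that activates macrophages, at 1 µg/ml for 6 h. The last group was held in control medium without LPS. No raised-sugar culture without LPS and no osmotic control were among the samples, so the sugars were compared under LPS only. Nothing in the labels says that a group's 3 libraries were separate cultures, and p-values here measure only their spread, which may be technical.

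Lysosomes break down protein, glycan, lipid and nucleic acid that a phagocyte takes up or turns over itself. Their enzymes work at an acid pH, which the V-ATPase keeps up by pumping protons through its membrane sector V0 with energy from ATP hydrolysis in its cytosolic sector V1. Many lysosomal genes share a promoter element, the CLEAR element, that is bound by TFEB and TFE3 of the MiT family when these factors enter the nucleus. Microglia depend on these enzymes to digest myelin debris, dead cells and protein aggregates, and inherited loss of single enzymes or cofactors causes lysosomal storage disease with brain involvement.

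Promoters of the members were read from RefSeq (GRCm38.p6) as windows from 250 bases before to 50 bases after the transcription start. A window was found for 42 of the 49 members. The letters CACGTG, the core of the CLEAR element, stood in a window of 13 of these 42 genes (31.0%), against 8.09% of all 27025 genes in the table and 11.9% of the 9329 tested genes in it. The longer TCACGTGA, which contains CACGTG, stood in 6 of 42 (14.3%), against 1.12% of all genes and 2.24% of tested genes. Both motifs read the same on either strand. The 13 genes were Ctsa, Ctsd, Ctsl, Lgmn, Gaa, Gla, Glb1 and Naglu among the hydrolases, Lamp1 and Mcoln1 among the membrane proteins, and Atp6v0b, Atp6v0d1 and Atp6v1a of the V-ATPase. A match describes letters in the window and not binding. The 250 bases before the start are printed for 4 members that show how the motif lies in genes of different roles and different responses. Capitals mark CACGTG or TCACGTGA.
Lamp1, chr8:13158911-13159160, plus strand: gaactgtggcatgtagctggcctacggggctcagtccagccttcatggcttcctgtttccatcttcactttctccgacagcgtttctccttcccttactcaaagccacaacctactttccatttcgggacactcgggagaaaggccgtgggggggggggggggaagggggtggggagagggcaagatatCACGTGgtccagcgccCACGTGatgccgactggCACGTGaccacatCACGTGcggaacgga
Ctsd, chr7:142387828-142388077, minus strand: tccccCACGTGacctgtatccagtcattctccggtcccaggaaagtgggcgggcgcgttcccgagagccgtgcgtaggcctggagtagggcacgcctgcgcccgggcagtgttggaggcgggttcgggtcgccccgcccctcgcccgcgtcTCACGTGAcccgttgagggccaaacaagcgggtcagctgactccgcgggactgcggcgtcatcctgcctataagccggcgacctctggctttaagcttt
Atp6v0b, chr4:117887330-117887579, minus strand: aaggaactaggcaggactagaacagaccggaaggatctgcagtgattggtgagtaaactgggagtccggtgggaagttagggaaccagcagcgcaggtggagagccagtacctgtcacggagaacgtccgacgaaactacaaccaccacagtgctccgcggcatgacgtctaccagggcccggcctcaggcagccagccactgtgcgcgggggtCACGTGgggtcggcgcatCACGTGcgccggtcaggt
Atp6v1a, chr16:44139260-44139509, minus strand: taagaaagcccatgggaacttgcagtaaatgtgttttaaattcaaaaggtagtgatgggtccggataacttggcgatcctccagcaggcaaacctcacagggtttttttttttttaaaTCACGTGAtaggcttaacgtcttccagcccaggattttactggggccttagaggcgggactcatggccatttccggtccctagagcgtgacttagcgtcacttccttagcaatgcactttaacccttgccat
The membrane glycoprotein gene Lamp1 carried 4 copies of CACGTG close to its start, with centres 58, 42, 25 and 12 bases upstream. Ctsd, the gene of an aspartic protease, carried 1 TCACGTGA centred 95 bases upstream and 1 CACGTG 242 bases upstream. The V0 gene Atp6v0b carried 2 copies at 33 and 15 bases, and the V1 gene Atp6v1a a single TCACGTGA at 128 bases.

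Total counts were 15453776 to 16562344 in high fructose with LPS, 15919091 to 16743251 in high glucose with LPS, 16363767 to 17015639 in control medium with LPS, and 16589508 to 17956772 in control medium. Of 11 microglia and macrophage markers, 8 had at least 10 counts in every library, while P2ry12, Sall1 and Aif1 were low, with at most 6, 1 and 9 counts. The summed level of this list was 1406 to 1430 CPM (read counts scaled to a common library total) in high fructose with LPS, 1296 to 1362 in high glucose with LPS, 1482 to 1500 in control medium with LPS and 1308 to 1333 in control medium. The neuron, lymphocyte, endothelial, fibroblast and epithelial lists summed to at most 17.2 CPM in any library, with Cd3e and Cldn5 at 0 counts. The astrocyte and oligodendrocyte lists summed to 18.2 to 28.7 and 27.7 to 39.3 CPM, and of their 4 genes each only Aldh1l1 and Mbp had at least 10 counts in every library. Within groups, the libraries were least alike with raised sugar: on principal component 2, which held 9.91% of the variance, fructose libraries 1, 2 and 3 lay at -23.8, 10.9 and -2.01 and glucose libraries 1, 2 and 3 at 11.9, -15.8 and -18.5.

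The lysosomal genes were abundant and steady. The 49 genes together took 2.34% to 2.46% of all counts in high fructose with LPS, 2.27% to 2.37% in high glucose with LPS, 2.41% to 2.48% in control medium with LPS and 2.43% to 2.49% in control medium. Levels per gene length, in FPKM (fragments by kilobase of gene and by sequencing depth), spanned more than 3 orders of magnitude, as the plot of levels by role shows. Ctsz, the gene of the carboxypeptidase cathepsin Z, was highest in every group, at 1156 ± 53.3 FPKM in high fructose with LPS, 1176 ± 47.9 in high glucose with LPS, 1190 ± 1.97 in control medium with LPS and 883 ± 50.02 in control medium (SD, n = 3 each). Ctsb, Ctsd and Lamp1 held the next 3 places in every group. Tfeb stood at 2.83 ± 0.19, 2.42 ± 0.42, 2.34 ± 0.39 and 3.33 ± 0.16 FPKM in the same order of groups, the last place but 1. Ctsh was lowest, at 0.26 to 0.32 FPKM, and with 0.496 to 2.09 CPM per library its comparisons carry wide intervals. The median coefficient of variation over members within a group was 3.86%, 3.98%, 3.41% and 2.48% in the same order.

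**Figure D1:**
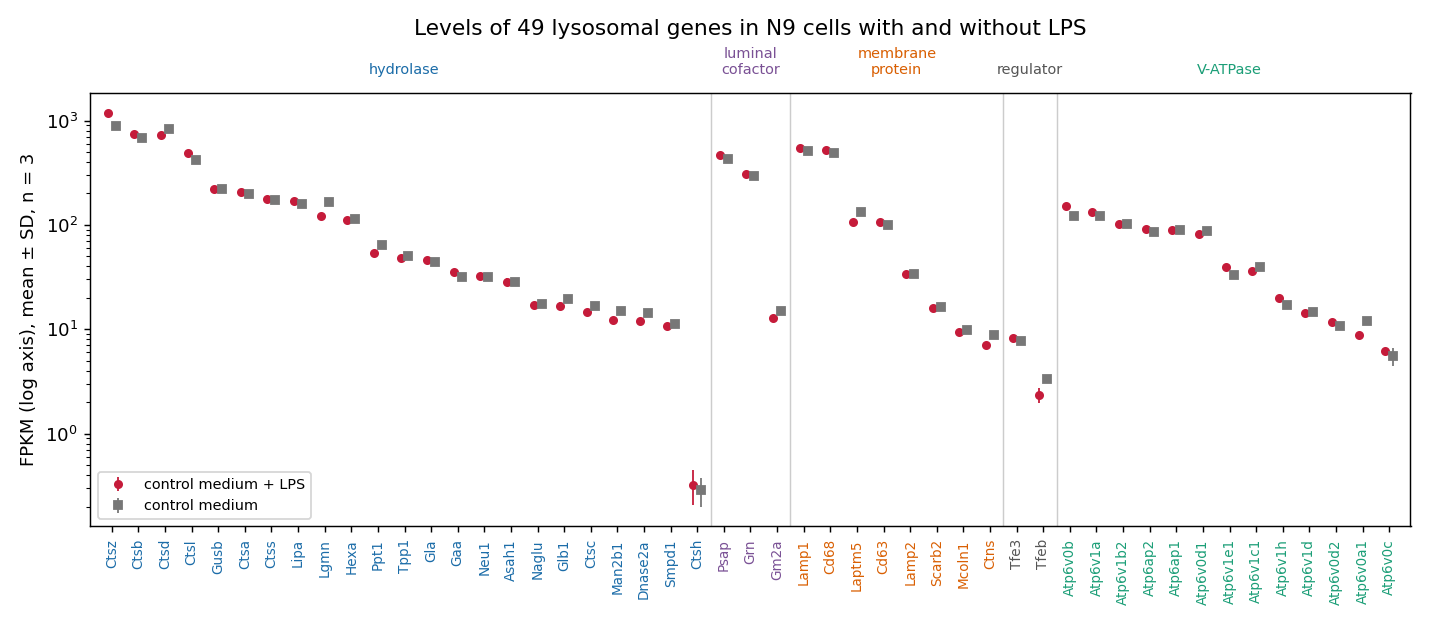
FPKM (log axis) of each of the 49 lysosomal genes, grouped by role, in control medium with LPS (circles) and control medium (squares), as means with SD over 3 libraries. Ctsz stands highest, at 1190 FPKM with LPS and 883 without, and Ctsh lowest, at 0.32 FPKM with LPS and 0.29 without.

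The first comparison set LPS in control medium against control medium, and asks how the lysosomal genes respond to the inflammatory stimulus. LPS raised some lysosomal genes and lowered others, and the log2 fold change was smaller than 0.5 in size for 48 of the 49. With edgeR's quasi-likelihood test and Benjamini-Hochberg adjustment over 12766 tested genes, all 49 members were tested, 9 were higher and 12 lower with LPS at an adjusted p below 0.05. Over all tested genes 28.8% were called, 15.2% higher and 13.6% lower. The median log2 fold change of the 49 members was -0.00054, against -0.0040 over all tested genes, and the median size without sign was 0.11, against 0.18. The libraries of the 2 groups did not overlap for 28 members, 14 higher and 14 lower, where 44.3% of all tested genes did not overlap (22.6% higher, 21.8% lower).

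The 2 regulators differed from each other in direction. Tfeb (ENSMUSG00000023990, mm10 chr17:47737030-47792419) read 11.2, 13.0 and 15.7 CPM with LPS, against 19.9, 18.7 and 18.2 CPM without. Every LPS library lay below every control library, and the log2 fold change was -0.51 ± 0.13 (SE; edgeR adjusted p = 0.00641), the only one beyond 0.5 in size. Tfe3, the related factor, read 74.4, 81.6 and 75.2 CPM with LPS and 66.9, 74.5 and 72.3 CPM without, with overlap between the groups. Its difference of 0.11 (95% interval -0.01 to 0.24) was not called (edgeR adjusted p = 0.17).

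Among the hydrolases 4 rose and 7 fell with LPS, of 23 tested, with a median log2 fold change of -0.0033. The cysteine proteases Ctsz, Ctsl and Ctsb rose. Ctsz (ENSMUSG00000016256, chr2:174427493-174439039) read 1723, 1724 and 1722 CPM with LPS, against 1357, 1212 and 1269.5 CPM without. All LPS libraries stood above all control libraries, and the rise of 0.43 ± 0.05 on the log2 scale had an edgeR adjusted p of 7.21e-07. Ctsl, whose product is a broad endopeptidase, read 3253, 3044 and 3158 CPM with LPS and 2872, 2637 and 2703 CPM without, a rise of 0.20 ± 0.05 (edgeR adjusted p = 0.00719). Of the exonic bases of Ctsl, 26.8% overlap Gm47123 on the other strand, and no strand setting is given for the counting. Ctsb encodes an endopeptidase that also removes dipeptides from protein ends. It read 4562, 4599 and 4424 CPM with LPS and 4132, 4033 and 4127 CPM without, a rise of 0.14 ± 0.03 (edgeR adjusted p = 0.00198).

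The other proteases that passed the test fell. Lgmn (ENSMUSG00000021190, chr12:102394084-102439813), the gene of the asparaginyl endopeptidase legumain, which processes several cathepsins, read 293, 281 and 272 CPM with LPS and 389, 384 and 395 CPM without. The groups stood far apart, at -0.46 ± 0.05 on the log2 scale (edgeR adjusted p = 4.26e-07). Ctsd read 1740.5, 1712 and 1699 CPM with LPS and 1931, 1959 and 1971 CPM without, a difference of -0.19 ± 0.04 (edgeR adjusted p = 0.00141). A same-strand gene model, Gm49369, covers 34.4% of the exonic bases of Ctsd. Ctsc, the gene of a dipeptidyl peptidase that activates granule serine proteases, read 89.4, 84.9 and 81.1 CPM with LPS and 99.6, 99.6 and 96.2 CPM without, a difference of -0.21 ± 0.06 (edgeR adjusted p = 0.0147). Ctss, whose product trims the invariant chain of MHC class II, read 248, 235 and 239 CPM with LPS and 243, 232 and 239 CPM without, and its 95% interval was -0.11 to 0.15.

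Enzymes of glycan, lipid and nucleic acid breakdown gave 1 rise and 4 falls. Gaa, the gene of the acid glucosidase that degrades glycogen, read 169, 177 and 166 CPM with LPS and 144, 159 and 151 CPM without, a rise of 0.17 ± 0.05 (edgeR adjusted p = 0.0223). Man2b1, the lysosomal alpha-mannosidase gene, read 91.9, 100.3 and 104 CPM with LPS and 120.1, 117 and 124 CPM without, a fall by 0.29 ± 0.05 on the log2 scale (edgeR adjusted p = 0.000415). Ppt1, the gene of a thioesterase that removes palmitate from proteins, changed by -0.26, Dnase2a, the gene of the acid DNase, by -0.26, and Glb1, the beta-galactosidase gene, by -0.22 with LPS (edgeR adjusted p = 0.000631, 0.00532 and 0.0249). The exons of Dnase2a overlap Mast1 on the other strand over 30.0% of their bases. Gusb, the beta-glucuronidase gene, was called in neither direction, at 1035, 1002 and 1012 CPM with LPS and 1042, 989.8 and 1019 CPM without, with an interval of -0.08 to 0.07.

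Of the 3 luminal cofactors only Psap passed the test. Psap encodes the precursor of the saposins, which present sphingolipids to their hydrolases, and read 1282, 1270.0 and 1276 CPM with LPS and 1174, 1180.0 and 1192 CPM without. The rise was small but the groups stood apart, at 0.11 ± 0.03 (edgeR adjusted p = 0.0176). Grn, the progranulin gene, read 1085, 1076 and 1038 CPM with LPS and 1006, 1023 and 1025 CPM without, at 0.07 (edgeR adjusted p = 0.171). Gm2a, whose product lifts GM2 ganglioside out of the membrane, had a log2 fold change of -0.21 (edgeR adjusted p = 0.0708).

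No membrane protein rose at the threshold and 2 of 8 fell, and DESeq2 gave the same 0 and 2. An unadjusted edgeR p below 0.05 was found for 3 of the 8, against 4836 of all 12766 tested genes. Laptm5, a membrane protein of blood cell lysosomes that lowers surface receptor levels, read 424, 414 and 391 CPM with LPS and 504, 518 and 512 CPM without, at -0.32 ± 0.05 (edgeR adjusted p = 0.000111). Ctns, the cystine exporter gene, read 22.8, 24.0 and 25.0 CPM with LPS and 28.0, 31.2 and 31.5 CPM without, at -0.34 ± 0.08 (edgeR adjusted p = 0.00527). In both genes every LPS library lay below every control library. The structural glycoprotein gene Lamp1 read 1493, 1440.0 and 1429 CPM with LPS and 1379, 1370.3 and 1375 CPM without, at 0.08 (edgeR adjusted p = 0.113). Lamp2, which also serves in chaperone-mediated autophagy, read 335, 327 and 318 CPM with LPS and 317, 326 and 330.4 CPM without, with an interval of -0.08 to 0.10. The macrophage glycoprotein gene Cd68 read 696, 657 and 624 CPM with LPS and 589, 633 and 622 CPM without, at 0.10 (edgeR adjusted p = 0.155). The tetraspanin gene Cd63 read 401, 384 and 401 CPM with LPS and 376, 345 and 377 CPM without, at 0.11 (edgeR adjusted p = 0.132), and it is uncertain because 73.2% of its transcript matches the pseudogene Cd63-ps. In a fit of the 6 libraries of these 2 groups alone Lamp1 and Cd63 were called higher at 0.09 and 0.12 (edgeR adjusted p = 0.0267 and 0.0488), as was the lipase gene Lipa at 0.11 (edgeR adjusted p = 0.0364), and the cofactor gene Gm2a was called lower. Ctsb, Hexa, Atp6v0b and Lamp1 overlap genes on the other strand over 12.8%, 12.8%, 11.8% and 9.31% of their exonic bases.

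**Figure D2:**
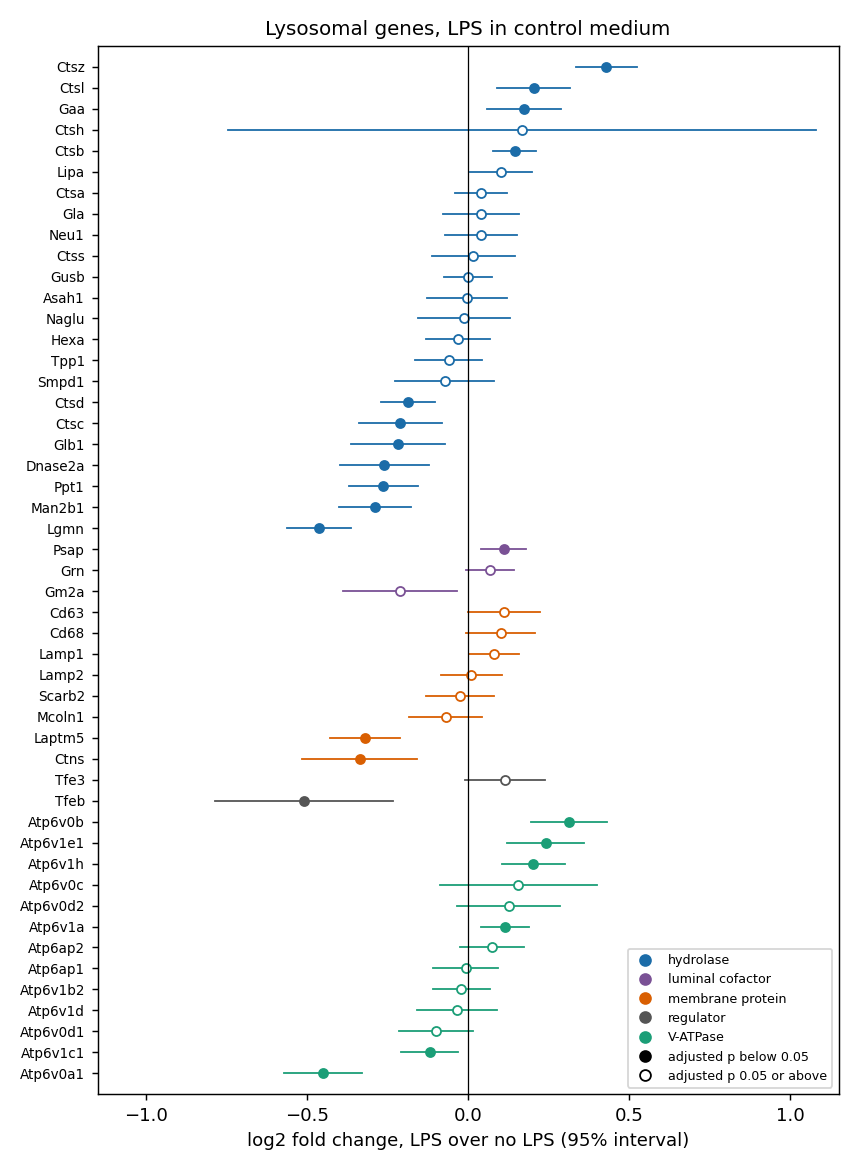
Log2 fold change of each lysosomal gene with LPS over control medium, grouped by role, with 95% intervals from the edgeR fit of all 12 libraries (filled points have an adjusted p below 0.05). Changes run from -0.51 for Tfeb to 0.43 for Ctsz, with 9 genes called higher and 12 called lower.

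The V-ATPase genes did not move as 1 block. Of 13 tested, 4 rose and 2 fell with LPS, with a median log2 fold change of 0.08. Atp6v0b, a gene of the proteolipid ring of V0, read 319, 304 and 318 CPM with LPS and 266, 243 and 248 CPM without, a rise of 0.31 ± 0.06 (edgeR adjusted p = 0.000303). Atp6v1e1, of the V1 stator stalk, read 172, 161 and 152 CPM with LPS and 134, 137 and 140.4 CPM without, a rise of 0.24 ± 0.06 (edgeR adjusted p = 0.00335). Atp6v1h, a regulatory V1 subunit, read 197, 194 and 190.4 CPM with LPS and 172, 167 and 166 CPM without, a rise of 0.20 ± 0.05 (edgeR adjusted p = 0.00269). Atp6v1a, the catalytic V1 subunit, read 801, 809.7 and 815 CPM with LPS and 751, 754 and 735 CPM without, a rise of 0.12 ± 0.04 (edgeR adjusted p = 0.0188). In these 4 genes the LPS libraries stood above the control libraries without overlap.

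Atp6v0a1 (ENSMUSG00000019302, chr11:101009452-101063719), the gene of an a subunit that lines the proton path in V0, went the other way. It read 54.9, 59.6 and 58.0 CPM with LPS and 73.7, 80.6 and 81.6 CPM without, at -0.45 ± 0.06 (edgeR adjusted p = 8.44e-06). Its paralogue Tcirg1, which encodes the a3 subunit and is not among the 49, averaged 415 ± 14.1 CPM with LPS and 258 ± 3.93 CPM without (SD, n = 3 each), at 0.69 ± 0.05 (edgeR adjusted p = 8.48e-09). Atp6v1c1, of the V1 stalk, was called lower at -0.12 ± 0.04 (edgeR adjusted p = 0.0405), but in none of the 6 fits that left out 1 library (adjusted p 0.0758 to 0.108). Atp6v0d2, a d subunit gene known from osteoclasts and macrophages, read 34.6, 30.2 and 30.9 CPM with LPS and 30.9, 28.2 and 28.5 CPM without, at 0.13 (edgeR adjusted p = 0.247). Atp6ap2, an accessory subunit gene, read 248, 233 and 235 CPM with LPS and 228, 225 and 227 CPM without, at 0.08 (edgeR adjusted p = 0.261).

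**Figure D3:**
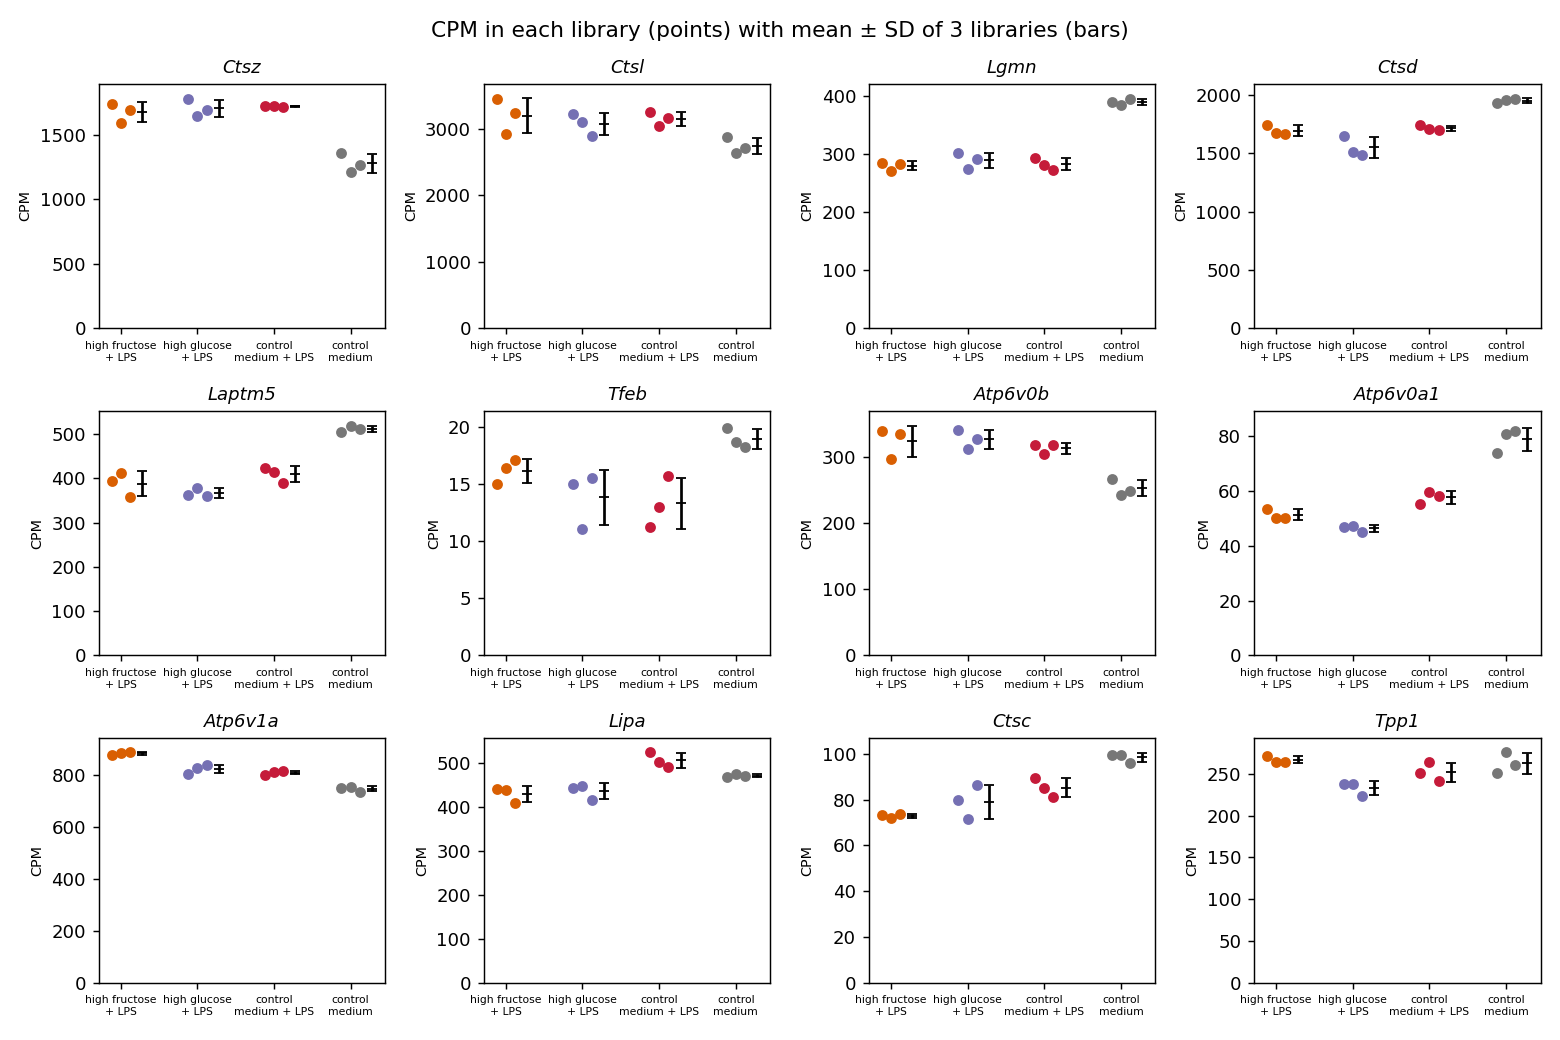
CPM (linear axes from 0) of single libraries as points for lysosomal genes named in the text, with bars for the mean and SD of 3 libraries, in high fructose with LPS, high glucose with LPS, control medium with LPS and control medium. Ctsz lies at 1722 to 1724 CPM with LPS and 1212 to 1357 CPM without, and Atp6v0a1 at 54.9 to 59.6 CPM with LPS and 73.7 to 81.6 CPM without.

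The balance of rises and falls depended on the scaling of the libraries. It was 9 to 12 with TMM factors, 6 to 13 with upper-quartile factors, and 3 to 16 with library totals alone, where the median of all genes lay at -0.09. The all-gene split was 1941 to 1736, 1622 to 2292 and 1412 to 2951 in the same order. Ctsz, Atp6v0b, Atp6v1e1 and the 12 falls kept their calls under all 3 scalings, and no called member changed sign. Of the 21 calls, 15 held in every fit that left out 1 library, and the others were Psap, Gaa, Glb1, Ctsc, Atp6v1a and Atp6v1c1.

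The next comparisons set high fructose with LPS and high glucose with LPS each against control medium with LPS, and ask what raised sugar adds to the response. Both use the same 3 control-medium LPS libraries, so their values are not independent. Few lysosomal genes passed the test: 3 with fructose and 2 with glucose. Over all tested genes 4.91% were called with fructose (2.37% higher, 2.55% lower) and 1.56% with glucose (0.587% higher, 0.971% lower). The 44 other members were called in neither of these comparisons nor between the sugars. With fructose 20 members had a positive and 29 a negative log2 fold change, with a median of -0.02, against -0.0013 over all genes. With glucose 11 were positive and 38 negative, with a median of -0.06, against 0.0027 over all genes. Groups did not overlap for 13 members with fructose, 5 higher and 8 lower, and for 21 with glucose, 3 higher and 18 lower, where 20.4% of all tested genes (10.4% higher, 10% lower) and 19.2% (9.4% higher, 9.76% lower) did not overlap.

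Lipa (ENSMUSG00000024781, chr19:34492318-34527474) was lower with both sugars. It encodes lysosomal acid lipase, which frees cholesterol and fatty acids from the cholesteryl esters and triglycerides of taken-up lipoproteins. It read 443, 439.6 and 409 CPM in high fructose, 445, 449 and 417 CPM in high glucose, and 526, 503 and 492 CPM in control medium, all with LPS. Every raised-sugar library lay below every control-medium LPS library, and also below the 470.0, 475 and 471 CPM of control medium without LPS. The log2 fold change was -0.23 ± 0.05 with fructose (95% interval -0.33 to -0.14, edgeR adjusted p = 0.0039) and -0.21 ± 0.05 with glucose (-0.31 to -0.12, edgeR adjusted p = 0.0245). The sugars did not differ at the threshold, at -0.02 with an interval of -0.12 to 0.08 (edgeR adjusted p = 0.877). The fructose call held without each library in turn (adjusted p 0.00656 to 0.0291), while the glucose call was lost without any 1 of the 3 control-medium LPS libraries or glucose library 3 (up to 0.142).

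Atp6v0a1, which LPS alone had lowered, read 53.4, 50.2 and 49.8 CPM in high fructose, 46.6, 47.1 and 44.9 CPM in high glucose, and 54.9, 59.6 and 58.0 CPM in control medium with LPS. All raised-sugar libraries lay below all control-medium LPS libraries. The change was called with glucose at -0.32 ± 0.06 (-0.44 to -0.19, edgeR adjusted p = 0.012) and not with fructose at -0.17 (edgeR adjusted p = 0.137). The difference between the sugars, 0.15, was not called either (edgeR adjusted p = 0.231). The glucose call was lost without control-medium LPS library 2 or 3 or glucose library 3 (adjusted p up to 0.0732).

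Atp6v1a and Ctsc were called with fructose but not with glucose. Atp6v1a (ENSMUSG00000052459, chr16:44085402-44139705) read 876, 883 and 889 CPM in high fructose and 801, 809.7 and 815 CPM in control medium with LPS, at 0.13 ± 0.04 (0.05 to 0.20, edgeR adjusted p = 0.0466). Ctsc (ENSMUSG00000030560, chr7:88278085-88310888) read 73.2, 72.1 and 73.7 CPM in high fructose and 89.4, 84.9 and 81.1 CPM in control medium with LPS, at -0.22 ± 0.06 (-0.35 to -0.09, edgeR adjusted p = 0.0492). The groups stood apart in both genes, but each call was lost in all 6 fits that left out 1 library (adjusted p 0.0848 to 0.173 for Atp6v1a and 0.0535 to 0.22 for Ctsc). In high glucose Atp6v1a read 805, 824 and 837 CPM and Ctsc 79.7, 71.4 and 86.3 CPM, overlapping the control-medium LPS values. The difference between the sugars was not called for either gene, at 0.10 for Atp6v1a and -0.12 for Ctsc (edgeR adjusted p = 0.131 and 0.399).

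By role, most hydrolases had a negative difference with both sugars, while the pump genes were of mixed sign. Among the 23 hydrolases 18 had a negative log2 fold change with each sugar, with a median of -0.05 with fructose and -0.07 with glucose. The 8 cathepsins were negative in 7 cases with fructose and 8 with glucose. Among the 13 V-ATPase genes 9 were positive with fructose, with a median of 0.06, and 9 negative with glucose, with a median of -0.02. These counts of signs were equal under all 4 scalings run. Of these differences, 2 of 23 hydrolases and 1 of 13 V-ATPase genes passed the test with fructose, and 1 and 1 with glucose. With glucose Ctsd, Hexa, Naglu and Grn came near it, at -0.15, -0.17, -0.28 and -0.14 (edgeR adjusted p = 0.0814, 0.0814, 0.0542 and 0.0676), and DESeq2 called them along with Psap. Ctsd read 1747, 1673 and 1671 CPM in high fructose, 1653, 1516 and 1487 CPM in high glucose, and 1740.5, 1712 and 1699 CPM in control medium with LPS. The summed microglial marker level was likewise lower with both sugars, at the values given above, and its part in these small differences was not tested. Among the markers, Csf1r read 400 to 424 CPM in high fructose and 383 to 391 in high glucose. Its level in control medium with LPS was 469 to 477 CPM. Spi1 overlapped between these groups, at 404 to 449, 368 to 440 and 400 to 425 CPM in the same order. All libraries came from the N9 line. In bulk RNA fewer expressing cells and less RNA per cell cannot be told apart.

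Tfeb, Ctss, Lamp1 and Laptm5 were not called with either sugar. Tfeb read 15.0, 16.4 and 17.1 CPM in high fructose and 15.0, 11.05 and 15.5 CPM in high glucose, against 11.2, 13.0 and 15.7 CPM in control medium with LPS. Its fructose difference of 0.28 was not called (edgeR adjusted p = 0.333), and the libraries overlapped. Ctss read 236, 197 and 215 CPM in high fructose and 241, 237 and 214 CPM in high glucose, against 248, 235 and 239 CPM. Lamp1 read 1461, 1466 and 1378 CPM in high fructose and 1425, 1372 and 1354 CPM in high glucose, against 1493, 1440.0 and 1429 CPM. Laptm5 read 394, 413 and 357 CPM in high fructose and 363, 379 and 359.5 CPM in high glucose, against 424, 414 and 391 CPM, and its glucose difference of -0.16 was not called (edgeR adjusted p = 0.166).

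**Figure D4:**
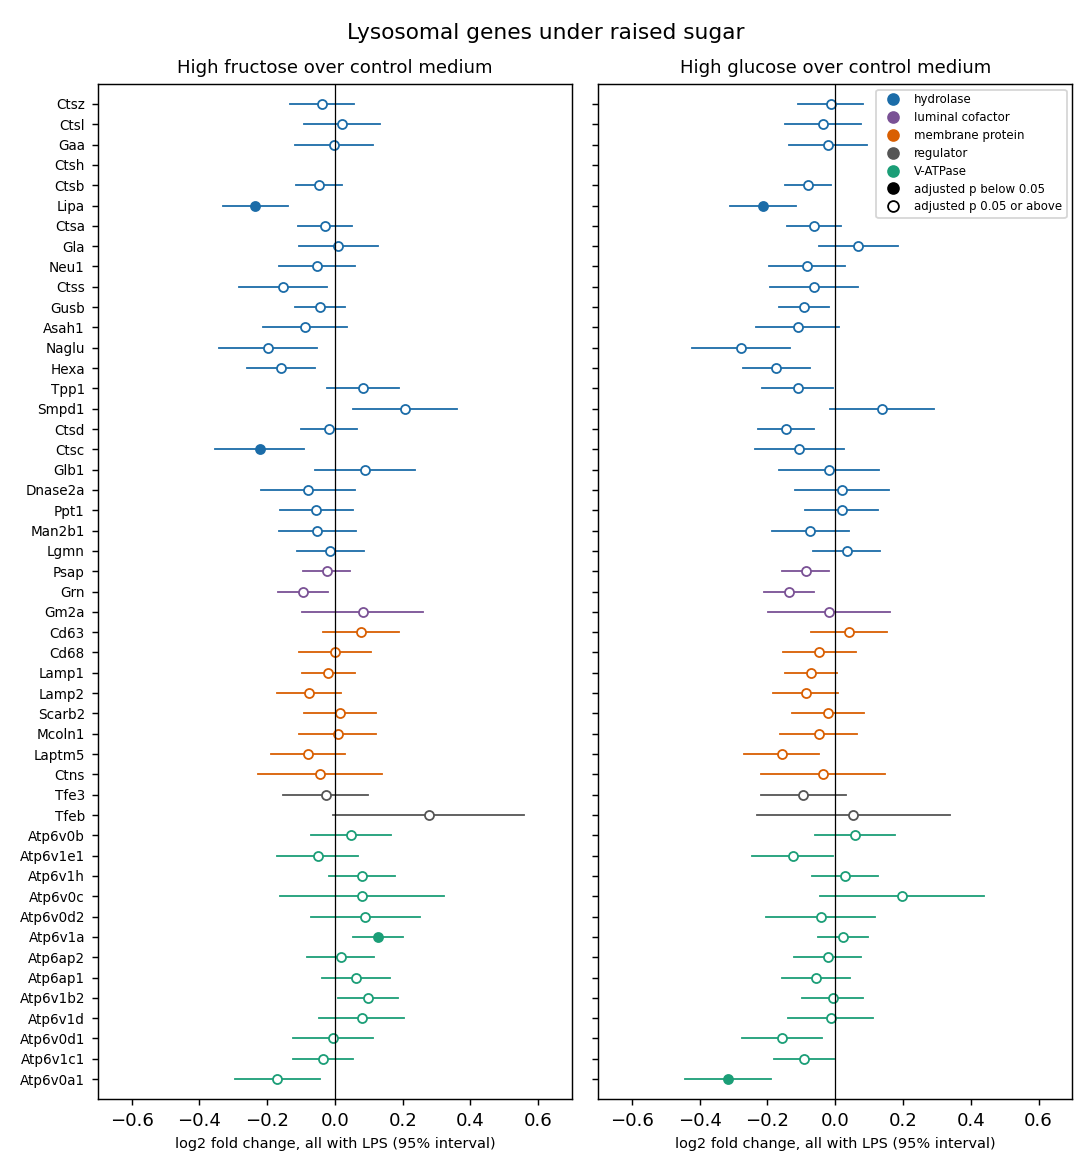
Log2 fold change of the lysosomal genes in high fructose (left) and high glucose (right) over control medium, all with LPS, with 95% intervals from edgeR (filled points have an adjusted p below 0.05). Lipa lies at -0.23 and -0.21, Atp6v0a1 at -0.17 and -0.32, and Ctsh is not drawn because its interval runs past the axis.

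The last comparison set high fructose against high glucose, both with LPS. It reuses the fructose and glucose libraries of the 2 comparisons above, so its values are not independent of theirs. Only Tpp1 was called among the 49, where 3.72% of all tested genes were called (1.84% higher, 1.88% lower). Tpp1 (ENSMUSG00000030894, chr7:105744811-105752235) encodes tripeptidyl peptidase 1, which removes tripeptides from protein ends and is lost in a neuronal ceroid lipofuscinosis. It read 272, 265 and 264 CPM in high fructose and 238, 238 and 224 CPM in high glucose, without overlap, at 0.19 ± 0.05 (0.09 to 0.30, edgeR adjusted p = 0.0361). Against the 251, 264 and 241 CPM of control medium with LPS neither sugar was called, at 0.08 with fructose and -0.11 with glucose (edgeR adjusted p = 0.477 and 0.328). The call was lost in all 6 fits that left out 1 library (adjusted p 0.0551 to 0.164).

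The log2 fold change of fructose over glucose was positive for 37 of the 49 members, with a median of 0.05, against 49.4% of all tested genes and a median of -0.0018. The same glucose libraries had given 38 negative members against control medium with LPS, so the 2 counts are not separate results. All 12 members whose groups did not overlap were higher in fructose, where 17.9% of all tested genes did not overlap (9.29% higher, 8.64% lower). Of the V-ATPase genes 11 of 13 were positive with a median of 0.09, and of the hydrolases 14 of 23 with a median of 0.02. The 13 V-ATPase genes summed to 3242, 3139 and 3182 CPM in high fructose, against 2998 to 3032 CPM in high glucose, 3017 to 3105 CPM in control medium with LPS and 2889 to 2956 CPM in control medium. Such sums weigh abundant genes most. Atp6v0c adds only 16.4 to 25.0 CPM per library, and 39.3% of its transcript matches Atp6v0c-ps2. Whether reads were lost to this copy was not tested. Atp6v1a read 876 to 889 CPM in high fructose and 801 to 815 CPM in control medium with LPS. Atp6v1b2 read 568 to 581 and 523 to 562 CPM in the same order. Atp6v0b overlapped between these groups, at 298 to 340 and 304 to 319 CPM. Against control medium with LPS, 4 of the 13 had a negative log2 fold change with fructose. The ratio of summed V-ATPase to summed hydrolase FPKM was 0.184, 0.189 and 0.187 in high fructose, 0.176, 0.181 and 0.185 in high glucose, 0.176, 0.174 and 0.175 in control medium with LPS, and 0.178, 0.178 and 0.177 in control medium. The fructose and glucose values overlapped, while all fructose values lay above those of both control-medium groups. The hydrolase sum rested largely on Ctsz, Ctsb, Ctsd and Ctsl, the hydrolases with the highest FPKM. None of the V-ATPase genes was called in this comparison by edgeR, and DESeq2 called 1, Atp6v1a, among 583 genes in all. An unadjusted edgeR p below 0.05 was found for 5 of the 13, against 1995 of all 12766 tested genes.

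Lists of other lysosomal genes held calls in both directions with LPS as well, where 28.8% of all tested genes were called, 15.2% higher and 13.6% lower. In the list of other hydrolases, which also holds proteins that are not hydrolases, 8 of 30 tested genes rose and 6 fell. Acp5, the tartrate-resistant phosphatase gene, averaged 5.28 ± 0.45 CPM with LPS and 0.56 ± 0.17 CPM without. Its log2 fold change was 3.23 ± 0.29 (edgeR adjusted p = 8.96e-08). At its level without LPS, the filter on low counts may have kept Acp5 only through libraries with LPS. Npc2, a cholesterol carrier and not a hydrolase, rose by 0.53 ± 0.06 (edgeR adjusted p = 2.51e-06). Of 25 other membrane proteins 10 rose and 3 fell. Slc15a3, a peptide and histidine transporter gene, averaged 445 ± 4.32 CPM with LPS and 129 ± 4.67 CPM without, at 1.79 ± 0.05 (edgeR adjusted p = 2.36e-15). The cation channel gene Mcoln2 and the metal transporter gene Slc11a1 rose by 1.24 ± 0.06 and 0.64 ± 0.04 (edgeR adjusted p = 2.02e-11 and 2.33e-09). These rises were larger than any among the 49.

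Of 13 tested other V-ATPase genes 1 rose, Tcirg1, and 4 fell, among them Atp6v1g1 at -0.36 ± 0.07 and the assembly factor gene Dmxl1 at -0.28 ± 0.07 (edgeR adjusted p = 0.000412 and 0.00323). Of 12 enzyme delivery genes 3 rose and 3 fell. M6pr, the gene of a receptor that carries mannose-6-phosphate-tagged enzymes to lysosomes, averaged 601 ± 6.07 CPM with LPS and 437 ± 12.8 CPM without, at 0.46 ± 0.04 (edgeR adjusted p = 6.14e-08). The sorting receptor gene Sort1 fell by 0.38 ± 0.07 (edgeR adjusted p = 0.000775). Of 18 genes of MiT factors and mTORC1 control 3 rose and 2 fell, with Fnip2 at 0.49 ± 0.06, Mitf at 0.18 ± 0.06 and Rragb at -0.61 ± 0.11 (edgeR adjusted p = 6.32e-06, 0.0282 and 0.000463). Of 4 tested cathepsin inhibitors 2 rose, Cstb at 0.41 ± 0.06 and the scarce Stfa3 at 1.67 ± 0.47 (edgeR adjusted p = 1.71e-05 and 0.0121). Stfa3 averaged 1.18 ± 0.59 CPM with LPS and 0.36 ± 0.19 CPM without. The filter on low counts may likewise have kept Stfa3 only through libraries with LPS.

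With raised sugar the same lists held few calls. Slc15a3 was lower with both sugars, at 335 ± 13.9 CPM in high fructose, 385 ± 4.01 CPM in high glucose and 445 ± 4.32 CPM in control medium with LPS (SD, n = 3 each). Its log2 fold change was -0.41 ± 0.04 with fructose, -0.21 ± 0.04 with glucose and -0.20 ± 0.04 between the sugars (edgeR adjusted p = 1.03e-05, 0.0217 and 0.0129). Cst7, the gene of cystatin F, an inhibitor of cathepsins, was -0.39 ± 0.07 with fructose and -0.33 ± 0.07 with glucose (edgeR adjusted p = 0.0019 and 0.0219). Slc11a1 was called lower with glucose, at -0.23 ± 0.04 (edgeR adjusted p = 0.0111), and higher in fructose than in glucose, at 0.18 ± 0.04 (edgeR adjusted p = 0.0293). Ctsk, the collagen-degrading cathepsin K gene, and Tpcn1, an endolysosomal channel gene, were higher in fructose than in glucose, at 0.18 ± 0.04 and 0.29 ± 0.06 (edgeR adjusted p = 0.0171 and 0.00488).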

How the data were processed

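For the 12 libraries the authors deposited unnormalised counts by Ensembl gene, and FPKM values. Counting used featureCounts 1.5.0-p3 on mm10, per the submitters' processing notes; its strand setting, the aligner and the annotation release are not given in the sources used. Each deposited FPKM value equalled the count over the gene length and 1 constant per library (largest deviation 1.18e-07% at 200 or more counts). The test was edgeR 4.0.16 (R 4.3.3): filterByExpr kept 12766 genes, TMM scaled the libraries, and 1 quasi-likelihood fit held all 12 libraries with 1 coefficient per group. The SE came from the F statistic, and a gene was called at a Benjamini-Hochberg adjusted p below 0.05 over all tested genes. CPM are counts scaled by the TMM library size. Intervals are 95%.

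Alternatives were RLE, upper-quartile or no factors, no filter, DESeq2 1.42.0, limma 3.58.1 on log2(FPKM + 1) or log2(FPKM + 0.1), the replicate number as a block, the 2 compared groups alone, and each library left out. The members, lists, markers and tests were chosen with earlier results of these data known. Values per library are given for up to 6 members with the largest rise and fall under LPS, those called with sugar, and a set of 16 taken whatever its result. Gusb, Glb1, Ppt1, Dnase2a, Gm2a, Hexa, Naglu, Atp6v1c1 and Atp6v1b2 were added after their values were seen. From each other list up to 3 called genes are named. Exon overlaps and near-identical copies (BLAST 2.17.0+, 98% identity over 75 bases) were read from GENCODE M21. Its gene starts and ends equal those deposited for all 49 members. For Lipa the deposited gene length was 2969 bases, against 6780 exonic bases in M21, so the exons counted were not all those of M21. A match of 50% or more is called uncertain. In each group every pair of libraries differed by more than counting error (lowest chi-square per degree of freedom 3.47), so all were kept as separate.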

Additional observations from a re-analysis of the deposited data

Results flagged for a closer look

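Tpp1 is listed because its level differed between the 2 sugars by a test of the difference itself. High fructose with LPS stood 0.19 ± 0.05 above high glucose with LPS on the log2 scale (edgeR quasi-likelihood, adjusted p = 0.0361), and all 3 fructose libraries lay above all 3 glucose libraries. None of the other 48 members was called in this test by edgeR, where 3.72% of all tested genes were called. An unadjusted edgeR p below 0.05 was found for 7 of the 49 members, against 1995 of all 12766 tested genes. DESeq2 called 3 members, Tpp1 included, and 583 genes in all. The edgeR call of Tpp1 was lost in all 6 fits that left out 1 library and in the fit of only the 2 groups. Limma on log2(FPKM + 0.1) did not call Tpp1 either.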

How the results depend on the processing

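With LPS the member count was 21, and became 14 with limma without a filter, 25 with only the 2 groups and 16 to 19 without single libraries. With glucose it was 2, and became 4 with library totals alone, 4 without a filter, 7 with DESeq2, 1 with limma without a filter and 0 to 4 without single libraries. With fructose it was 3, and became 5 with DESeq2 and 1 to 3 without single libraries. It was 2 with RLE factors, with upper-quartile factors, without a filter, in all limma fits and with only the 2 groups. Atp6v1a lost its fructose call with RLE factors, library totals alone, no filter and only the 2 groups. Ctsc lost its fructose call with upper-quartile factors and in all limma fits. Without fructose library 1 the 3 called were Lipa, Ctss and Hexa. Between the sugars the member count was 1, and became 3 with DESeq2 and 0 to 1 without single libraries. It was 0 with limma on log2(FPKM + 0.1), with limma without a filter and with only the 2 groups. The cause was not tested. Over all genes the glucose count of 199 became 427 without a filter, 328 with DESeq2, 126 with limma on log2(FPKM + 1) and 67 to 177 without single libraries; the fructose against glucose count of 475 became 247 with only the 2 groups. Of the results for single named members under the alternatives, 1705 kept their side of the threshold, 65 lost and 22 gained a call; 57 changed sign, none of them called in either fit. Replicate numbers were not taken to pair the samples, since deviations of same-numbered libraries correlated at -0.0556 to 0.131, over 0.1 in 4 of 12 pairs, although 9 of 12 libraries correlated best with their own number. With the replicate block the member count was 25 with LPS, 7 with glucose (Laptm5 among them), 4 with fructose and 2 between the sugars. The all-gene counts with this block were 391 with glucose and 735 between the sugars. Depth limits Ctsh, with 0.496 to 2.09 CPM.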
